A study of Mus musculus with 2 samples.

Results

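The collagen genes of the mouse were taken as every entry of the gene list whose symbol reads Col, a number, the letter a and a number to its end, such as Col4a3. This rule found 44 of 32285 genes and reads symbols only. Collagens are extracellular proteins made of chains wound into a triple helix. Fibrillar collagens give tissue its tensile strength, network collagens such as type IV form basement membranes, and smaller groups bind fibrils, span the plasma membrane or carry heparan sulfate. In fat, fibroblasts and their progenitors are the best known source of fibrillar collagen, while each adipocyte and vessel is wrapped by a basement membrane rich in collagen IV.

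Nuclei came from mesenteric perivascular adipose tissue, the fat around the vessels that supply the gut, of mice aged 11 weeks. Snap-frozen tissue was lysed, nuclei were purified on an iodixanol gradient, and nuclear RNA was counted with a 10x Genomics 3′ kit. A first library was from animals with floxed Prdm16 that also carried a Cre transgene, named AdopiQCre+ in the labels, which stands for the Adipoq (adiponectin) promoter that is active in adipocytes; it is called by its label, the Prdm16 cKO library. The other was from floxed animals without Cre, called the flox control library, so both groups carried the floxed allele. Prdm16 encodes a transcriptional regulator known for its part in brown and beige fat. The series title speaks of thoracic and abdominal fat, whereas the labels of both libraries give the mesenteric depot; the number of animals pooled and the deleted exon are not given, and the 3′ tags counted here cannot check the deletion.

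The Prdm16 cKO library held 8086 barcodes and 70895490 UMIs (unique molecular identifiers, each standing for 1 captured RNA), and the flox control library held 12060 barcodes and 108987031 UMIs. After removal of nuclei with over 5% mitochondrial UMIs and of the highest doublet scores, 7374 nuclei (median 6497 UMIs) were kept from the Prdm16 cKO library and 10532 nuclei (median 7047.5 UMIs) from the flox control library. The libraries shared 28 barcodes, 24 of them among kept nuclei. With 1 library per group there was no test of any difference. Levels are UMIs of a gene per 1000000 UMIs of a class (CPM), and all intervals are exact 95% intervals of counting error, which do not cover the spread between animals.

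Nuclei were grouped into 26 clusters from variable genes that left out every collagen gene, and clusters were named from marker lists that hold no collagen, so the collagen levels by class were not used in making the classes. The named classes were adipocyte-like (2910 Prdm16 cKO and 4427 flox control nuclei), progenitor or fibroblast-like (876 and 1140, called fibroblast-like from here), mesothelial-like (534 and 1013), vascular endothelial-like (298 and 439) and lymphatic endothelial-like (197 and 369). Smaller non-immune classes were pericyte-like (44 and 74), smooth muscle-like (34 and 62), Schwann-like (23 and 27), pancreatic acinar-like (182 and 78) and intestinal epithelial-like (20 and 135). Clusters 5 and 15 stayed unnamed. The mesothelium is the sheet of cells that lines the peritoneum, and pancreas and gut lie next to this depot.

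Summed over the 44 genes, collagen RNA was highest in fibroblast-like nuclei, at 5151 CPM (5090 to 5212) in the Prdm16 cKO library and 5758 CPM (5703 to 5814) in the flox control library. Mesothelial-like nuclei came next among the large classes, at 4704 CPM in the Prdm16 cKO library and 4690 CPM in the flox control library. The 9 progenitor or fibroblast markers, none at 0, summed in mesothelial-like nuclei to 38.6% and 34.3% of their own-class level in these libraries. Their part in the mesothelial-like collagen levels here and below was not tested. Smooth muscle-like nuclei reached 4081 and 3992 CPM and Schwann-like nuclei 3397 and 4543 CPM in the Prdm16 cKO and flox control libraries. Both are small classes. The 6 smooth muscle markers, none at 0, summed to 4117 CPM in smooth muscle-like nuclei of the Prdm16 cKO library and 8075 CPM in those of the flox control library, and the 8 adipocyte markers stood there at 43.6% and 17.3% of their own-class level; their part in the smooth muscle-like values here and below was not tested. In Schwann-like nuclei the 9 progenitor or fibroblast markers, of which 1 was at 0 in the Prdm16 cKO library and 2 in the flox control library, summed to 41.3% and 34.9% of their own-class level, and their part in the Schwann-like collagen levels here and below was not tested. Adipocyte-like nuclei held 1135 CPM in the Prdm16 cKO library and 1335 CPM in the flox control library.

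The adipocyte-like sum was not far above that of lymphocytes, cells not known for making collagen. T cell-like nuclei held 919 CPM in the Prdm16 cKO library and 1057 CPM in the flox control library, and B cell-like nuclei held 913 and 918 CPM. Median depth was 11920.5 and 12116 UMIs in adipocyte-like nuclei against 3755 and 3673.5 UMIs in T cell-like nuclei, in the Prdm16 cKO and flox control libraries. The higher of the T and B cell-like levels in the same library is therefore printed below as the background. It need not be all that free RNA can give. Granulocyte-like nuclei (99 and 185), also an immune class, held 1560 CPM in the Prdm16 cKO library and 1532 CPM in the flox control library. Their median depth was 2559 and 2701 UMIs. Col3a1 was 350 and 330 CPM there and Col1a2 143 and 116 CPM, above the background. Col4a1, at 147 and 167 CPM, was near it. Whether free RNA gave these levels was not tested. The 8 adipocyte markers, none at 0, were also read in T cell-like nuclei. Their sum there was 46.5% of its adipocyte-like level in the Prdm16 cKO library and 37.3% in the flox control library.

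**Figure D1:**
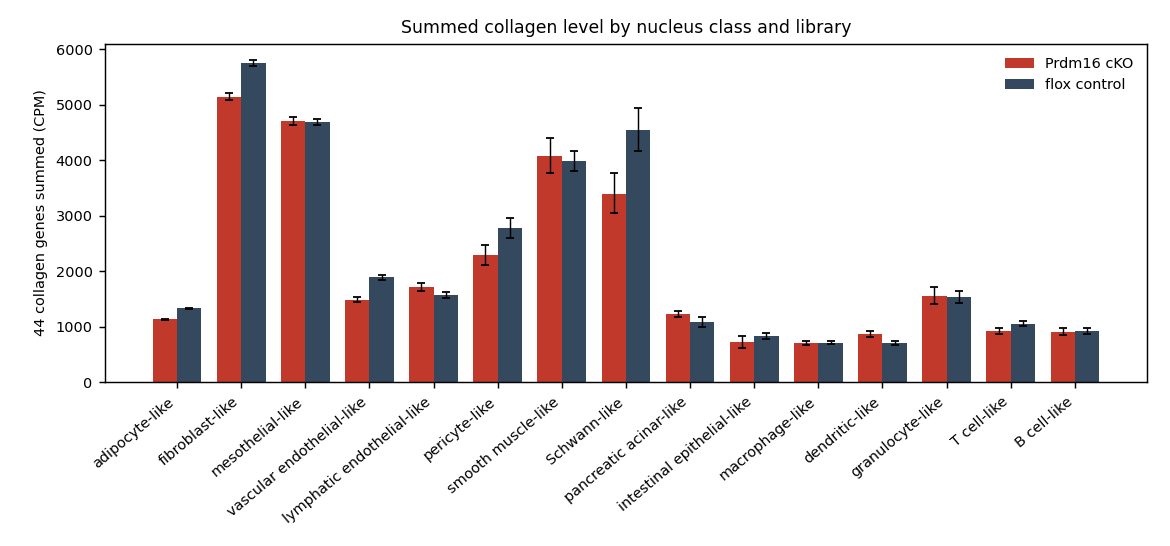
Summed level of the 44 collagen genes (CPM, vertical axis) in each class of nuclei, Prdm16 cKO library in red at the left and flox control library in dark blue at the right of each pair; bars are class sums and error bars exact 95% Poisson intervals of counting error. Fibroblast-like (5151 and 5758 CPM) and mesothelial-like nuclei (4704 and 4690 CPM) stand far above adipocyte-like (1135 and 1335 CPM) and T cell-like nuclei (919 and 1057 CPM).

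Measured members, those with at least 100 UMIs over both libraries in a class, were set against this background. In fibroblast-like nuclei 21 of 26 measured members were at least 2-fold above it in both libraries, where 11.7% of all genes with as many UMIs were. In mesothelial-like nuclei 17 of 26 were, against 13.6% of all genes. In adipocyte-like nuclei 1 of 28 was, Col15a1, against 2.31% of all genes. That count cannot be set beside the others, because the adipocyte markers themselves stood in T cell-like nuclei at the 46.5% and 37.3% given above, close to what a 2-fold bar allows. Vascular endothelial-like nuclei had 3 of 14 (Col5a2, Col8a1 and Col23a1), beside 9.74% of all genes. Lymphatic endothelial-like nuclei had 3 of 13 (Col4a5, Col18a1 and Col23a1), beside 11.6% of all genes. The 8 mesothelial markers, none at 0, summed in lymphatic endothelial-like nuclei to 16.3% of their own-class level in the Prdm16 cKO library and 18.5% in the flox control library. Their part in the Col4a5 and Col4a6 levels of this class, here and below, was not tested.

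**Figure D2:**
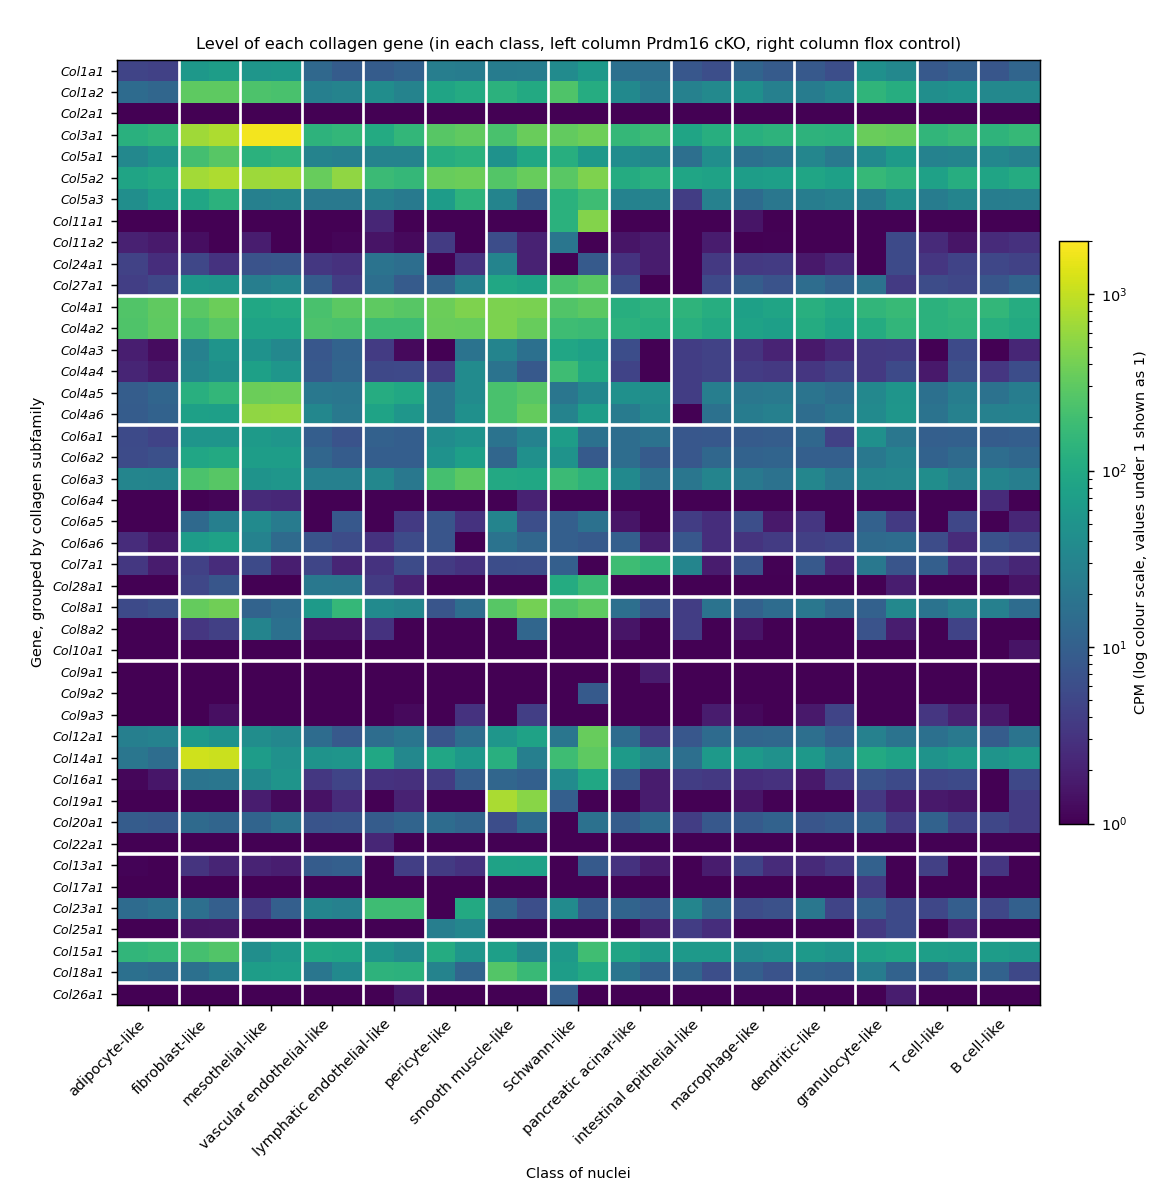
Level of each of the 44 collagen genes (rows, grouped by subfamily) in 15 classes of nuclei (column pairs, Prdm16 cKO at the left and flox control at the right of each pair); colour is CPM on a log scale, and values under 1 CPM are drawn as 1. Col3a1 in mesothelial-like, Col14a1 in fibroblast-like, Col19a1 in smooth muscle-like, Col23a1 in lymphatic endothelial-like and Col7a1 in pancreatic acinar-like nuclei stand out within their rows.

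Collagen IV is the network collagen of basement membranes, and its chains are encoded by 3 pairs of genes that lie head to head. In the GENCODE annotation of GRCm38, the build called mm10 in the submitters' processing notes, Col4a1 (chr8:11198423-11312826, minus strand) and Col4a2 (chr8:11312805-11449287, plus strand) overlap by 22 bases at their starts. The starts of Col4a3 (chr1:82586921-82722059, plus strand) and Col4a4 (chr1:82448423-82586849, minus strand) are 72 bases apart. Those of Col4a5 (chrX:141475385-141689234, plus strand) and Col4a6 (chrX:141165403-141474076, minus strand) are 1309 bases apart. The promoter windows of these pairs are shown because the levels of each pair moved together across the classes. Each is 300 bases from RefSeq on GRCm38.p6, read 5′ to 3′ on the gene's own strand, with CCAAT and GGGCGG, on either strand, in capitals (as ATTGG and CCGCCC where the match is on the other strand).
Col4a1 (chr8:11312777-11313076, minus strand): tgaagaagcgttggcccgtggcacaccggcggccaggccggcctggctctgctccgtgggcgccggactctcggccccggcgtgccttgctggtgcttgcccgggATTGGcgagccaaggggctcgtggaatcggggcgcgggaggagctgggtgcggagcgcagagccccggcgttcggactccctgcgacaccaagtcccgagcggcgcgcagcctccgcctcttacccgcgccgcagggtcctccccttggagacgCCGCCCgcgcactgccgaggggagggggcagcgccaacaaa
Col4a2 (chr8:11312555-11312854, plus strand): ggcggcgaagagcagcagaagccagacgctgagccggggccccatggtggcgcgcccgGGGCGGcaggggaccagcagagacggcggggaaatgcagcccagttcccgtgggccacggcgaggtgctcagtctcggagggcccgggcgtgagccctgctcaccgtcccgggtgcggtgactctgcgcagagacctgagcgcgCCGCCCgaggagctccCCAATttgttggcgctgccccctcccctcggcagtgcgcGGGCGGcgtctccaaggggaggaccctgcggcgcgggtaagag
Col4a4 (chr1:82586800-82587099, minus strand): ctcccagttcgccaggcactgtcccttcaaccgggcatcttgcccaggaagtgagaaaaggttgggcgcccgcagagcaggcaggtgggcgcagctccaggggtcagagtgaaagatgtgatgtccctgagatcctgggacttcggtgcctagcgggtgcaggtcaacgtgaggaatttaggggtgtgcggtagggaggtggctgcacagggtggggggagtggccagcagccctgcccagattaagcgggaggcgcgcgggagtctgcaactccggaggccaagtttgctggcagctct
Col4a5 (chrX:141475169-141475468, plus strand): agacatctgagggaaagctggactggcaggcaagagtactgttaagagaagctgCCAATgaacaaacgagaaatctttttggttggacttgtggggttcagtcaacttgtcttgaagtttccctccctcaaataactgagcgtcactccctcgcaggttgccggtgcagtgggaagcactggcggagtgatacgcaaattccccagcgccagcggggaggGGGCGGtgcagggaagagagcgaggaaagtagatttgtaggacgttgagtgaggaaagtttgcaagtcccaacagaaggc
Col4a6 (chrX:141474027-141474326, minus strand): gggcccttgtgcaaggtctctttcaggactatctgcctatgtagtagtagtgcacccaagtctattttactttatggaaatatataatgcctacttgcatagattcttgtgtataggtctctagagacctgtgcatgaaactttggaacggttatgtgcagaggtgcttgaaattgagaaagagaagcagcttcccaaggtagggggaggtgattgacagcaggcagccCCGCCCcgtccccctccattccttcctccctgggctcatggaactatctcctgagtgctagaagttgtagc

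The Col4a1 and Col4a2 windows overlap each other on opposite strands, and each holds 1 CCAAT box and at least 1 GC box. The Col4a5 window holds both motifs, the Col4a6 window a GC box without a CCAAT box, and the Col4a4 window, which spans both starts of its pair, neither. Over 32851 promoter windows of the same table, 37.4% hold CCAAT and 35.7% hold GGGCGG on either strand. TATAAA was searched too, is in 13.6% of all windows and in none of the 5 shown. Of the 44 collagen genes 35 had a window in the table; 13 of them hold CCAAT, 22 GGGCGG and 5 TATAAA. These matches are letters in a window and no evidence of binding.

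The 15 classes in both libraries gave 30 points, which share libraries and free RNA. Pearson's r over these points, here and below, is of CPM values put on a log2 scale. It was 0.96 for Col4a1 with Col4a2, 0.94 for Col4a3 with Col4a4 and 0.93 for Col4a5 with Col4a6. Among pairs of chains on different chromosomes r was 0.93 for Col1a1 with Col1a2, 0.79 for Col5a1 with Col5a2 and 0.74 for Col6a1 with Col6a3. It was 0.54 for Col4a3 with Col4a5, which join Col4a4 in a known trimer, and 0.05 for Col8a1 with Col8a2. For Col11a1 with Col11a2 and Col9a1 with Col9a2, which had few UMIs, it was 0.16 and -0.04. Col6a1 and Col6a2, on the same chromosome but not head to head, had 0.90. These are descriptions without a test. On the mean of both libraries, Col4a1 and Col4a2 were highest in smooth muscle-like and Col4a3 and Col4a4 in Schwann-like nuclei, both small classes. Col4a5 and Col4a6 were highest in mesothelial-like nuclei. Among classes of at least 100 nuclei per library, so were Col4a3 and Col4a4. Antisense genes overlap Col4a1 (Gm15418), Col4a2 (Gm15419) and Col4a3 (C430014B12Rik), and the strand setting of the counting is not given in the sources used here, so reads of such partners cannot be told apart.

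**Figure D3:**
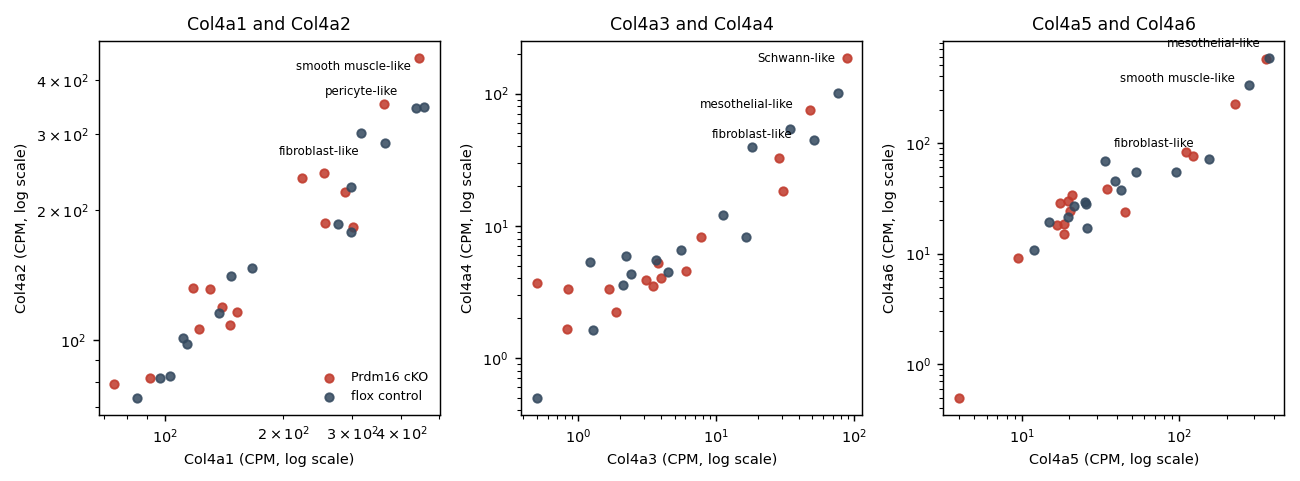
CPM of the chains of each head-to-head collagen IV pair against each other (log axes; values under 0.5 CPM drawn at 0.5), a point per class of nuclei and library, Prdm16 cKO in red and flox control in dark blue; the 3 classes with the highest mean are named. Points of each pair lie along a line, with smooth muscle-like nuclei highest on the mean of both libraries for Col4a1 and Col4a2 and mesothelial-like nuclei highest for Col4a5 (358 and 371 CPM) and Col4a6 (574 and 588 CPM).

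Col4a1 and Col4a2, the chains of the basement membrane network found under almost every cell sheet, were broad. Col4a1 was 444 CPM in the Prdm16 cKO library and 437 CPM in the flox control library in smooth muscle-like nuclei, 362 and 458 CPM in pericyte-like, 302 and 276 CPM in lymphatic endothelial-like and 287 and 364 CPM in fibroblast-like nuclei. In adipocyte-like nuclei Col4a1 was 254 and 316 CPM and Col4a2 244 and 301 CPM, in the Prdm16 cKO and flox control libraries, against a background of 152 and 148 CPM for Col4a1 and 131 and 141 CPM for Col4a2. Col4a2 was 237 and 226 CPM in vascular endothelial-like and 351 and 347 CPM in pericyte-like nuclei. The order of the fibroblast-like, lymphatic endothelial-like and adipocyte-like levels of Col4a1 was not the same in the libraries. Together with Col15a1 these chains made up 57.1% of collagen UMIs in adipocyte-like nuclei of the Prdm16 cKO library and 58.3% of those of the flox control library.

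Col4a5 and Col4a6, which pair in the basement membranes of smooth muscle and some epithelia, were highest in mesothelial-like nuclei. Col4a6 was 574 CPM (548 to 600) there in the Prdm16 cKO library and 588 CPM (569 to 606) in the flox control library, against a background of 28.5 and 29.0 CPM. Col4a5 was 358 and 371 CPM, against 17.6 and 25.4 CPM, and it was 225 and 279 CPM in smooth muscle-like and 111 and 95.2 CPM in lymphatic endothelial-like nuclei. Fibroblast-like nuclei held 122 and 155 CPM of Col4a5, with 379 and 397 CPM in cluster 14, as high as the mesothelial-like class, and 82.5 and 117 CPM in cluster 3. With each nucleus thinned to 1000 UMIs, Col4a6 was detected in 38.6% of Prdm16 cKO and 37.8% of flox control mesothelial-like nuclei, against 1.34% and 2.91% of T cell-like nuclei. Unthinned, the shares were 75.5% and 81.7% of mesothelial-like and 9.78% and 13.5% of T cell-like nuclei.

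The next levels of Col4a6 were in smooth muscle-like nuclei, at 225 CPM in the Prdm16 cKO library and 336 CPM in the flox control library. The fibroblast-like class was split for Col4a6 too: cluster 14 held 316 CPM of Col4a6 in the Prdm16 cKO library and 283 CPM in the flox control library, and cluster 3 held 38.2 and 39.1 CPM. Adipocyte-like nuclei held 9.18 and 10.8 CPM of Col4a6, below background. Col4a3 and Col4a4, the chains of the glomerular type of network, had fewer UMIs. Col4a4 was 75.3 and 54.1 CPM in mesothelial-like and 32.3 and 44.4 CPM in fibroblast-like nuclei of the Prdm16 cKO and flox control libraries, against a background of 3.35 and 6.60 CPM. Col4a3 was 48.3 and 34.7 CPM in mesothelial-like and 28.4 and 51.7 CPM in fibroblast-like nuclei, so its order between these classes differed between the libraries. The small Schwann-like class held more of both, with 187 CPM (19 UMIs) and 102 CPM (12 UMIs) of Col4a4 and 88.6 and 76.4 CPM of Col4a3 (9 UMIs in each library).

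Col15a1 and Col18a1 encode the multiplexins, basement membrane collagens that carry glycosaminoglycan chains. Col15a1 was 213 CPM in the Prdm16 cKO library and 254 CPM in the flox control library in fibroblast-like nuclei and 149 and 161 CPM in adipocyte-like nuclei, against a background of 71.6 and 66.0 CPM. Within fibroblast-like nuclei cluster 14 held 621 and 700 CPM of Col15a1 and cluster 3 149 and 184 CPM. Col15a1 was the member whose adipocyte-like level stood farthest above background, 2.09-fold in the library with the smaller ratio. Col18a1, the source of the fragment endostatin, was 262 and 173 CPM in smooth muscle-like and 135 and 131 CPM in lymphatic endothelial-like nuclei, against a background of 10.9 and 15.7 CPM. Part of Col18a1 overlaps Slc19a1 on the other strand.

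Among fibrillar members, Col3a1, which forms thin fibrils in vessel walls and soft organs, was highest in mesothelial-like nuclei. In mesothelial-like nuclei it was 1753 CPM (1708 to 1799) in the Prdm16 cKO library and 1742 CPM (1711 to 1774) in the flox control library. Fibroblast-like nuclei held 675 and 774 CPM, and the background was 147 and 170 CPM. Per kilobase of gene span, a scale on which genes of different length are set side by side here, Col3a1 led the members in mesothelial-like nuclei (45.9 and 45.6 CPM per kb), ahead of Col1a2 (6.45 and 6.07) and Col5a2 (5.15 and 5.20). Whether UMIs of a 3′ kit scale with span in these nuclei was not tested, and the order of genes rests on it. In fibroblast-like nuclei the same genes led, Col3a1 at 17.7 and 20.3, Col1a2 at 8.37 and 8.17 and Col5a2 at 5.39 and 6.14 CPM per kb.

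The same per-kilobase scale put Col3a1 (3.26 and 3.80), Col4a1 (2.22 and 2.77) and Col4a2 (1.79 and 2.21 CPM per kb) at the top in adipocyte-like nuclei of the Prdm16 cKO and flox control libraries. The Col3a1 level of adipocyte-like nuclei, 125 and 145 CPM, was below its lymphocyte background. In vascular endothelial-like nuclei the leaders per kilobase were Col3a1 (3.57 and 4.05), Col5a2 (2.63 and 4.40) and Col4a1 (1.95 and 2.61), with Col5a2 above Col3a1 in the flox control library. In lymphatic endothelial-like nuclei Col3a1 (2.74 and 4.03) and Col4a1 (2.64 and 2.41) led in both libraries, and Col4a2 (1.34 and 1.36) and Col5a2 (1.39 and 1.21) changed places below them. Col3a1 was below its background of 147 and 170 CPM in both endothelial classes, at 136 and 154 CPM in vascular and 105 and 154 CPM in lymphatic endothelial-like nuclei. In pancreatic acinar-like nuclei Col7a1 was 6.11 and 4.78 CPM per kb and Col3a1 4.09 and 4.80 CPM per kb, so Col7a1 was above Col3a1 in the Prdm16 cKO library and level with it in the flox control library. In smooth muscle-like nuclei Col3a1 (5.90 and 9.24) and Col4a1 (3.88 and 3.82) came first and second in both libraries, and the third differed, Col1a2 (3.64 and 2.75) in the Prdm16 cKO library and Col8a1 (2.10 and 3.13) in the flox control library. In Schwann-like nuclei Col3a1 (8.51 and 9.79) led in both, and the order below it differed between the libraries, with Col1a2 at 6.70 and 3.01 and Col5a3 at 2.84 and 4.15. In pericyte-like nuclei it was Col3a1 (7.36 and 8.22), Col4a1 (3.17 and 4.01) and Col6a3 (2.70 and 3.75).

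Col1a1 and Col1a2, the chains of collagen I, the main collagen of skin and bone, shared their pattern (r = 0.93 over the 30 points). Col1a2 was 307 and 300 CPM in fibroblast-like and 237 and 223 CPM in mesothelial-like nuclei of the Prdm16 cKO and flox control libraries, against a background of 42.4 and 47.8 CPM. Col1a1 was 56.8 and 69.1 CPM in fibroblast-like and 54.5 and 57.4 CPM in mesothelial-like nuclei. Per kilobase of span, the fibroblast-like level of Col1a1 was 3.38 and 4.11 CPM per kb and that of Col1a2 8.37 and 8.17 CPM per kb. In adipocyte-like nuclei Col1a1 was 4.80 and 4.31 CPM and Col1a2 14.4 and 12.4 CPM, each below background.

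Collagen V, which nucleates and limits fibrils of collagen I, is encoded by Col5a1, Col5a2 and Col5a3. Col5a2, which lies tail to tail with Col3a1 on chromosome 1, was 696 and 791 CPM in fibroblast-like, 665 and 670 CPM in mesothelial-like, 344 and 362 CPM in pericyte-like, and 339 and 567 CPM in vascular endothelial-like nuclei of the Prdm16 cKO and flox control libraries, against a background of 83.7 and 114 CPM. Col5a1 was 207 and 274 CPM in fibroblast-like and 128 and 145 CPM in mesothelial-like nuclei. Col5a3 was 89 and 131 CPM in fibroblast-like and 42.8 and 66.4 CPM in adipocyte-like nuclei, where its background was 25.1 and 31.0 CPM. Over the 30 points Col5a1 and Col5a2 had r = 0.79.

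Several minor fibrillar members were highest in small classes. Col11a1, a chain of the cartilage collagen XI, was 128 CPM (13 UMIs) in Schwann-like nuclei of the Prdm16 cKO library and 492 CPM (58 UMIs) in those of the flox control library, with at most 2.26 CPM in any class of at least 100 nuclei per library. In the flox control library 25 of those 58 UMIs came from 1 nucleus. Col27a1, a fibrillar collagen of developing cartilage, was 226 and 289 CPM in Schwann-like and 55.7 and 51.0 CPM in fibroblast-like nuclei, against a background of 7.54 and 11.2 CPM. Col24a1 was highest in lymphatic endothelial-like nuclei among classes of at least 100 nuclei per library, at 18 and 15.5 CPM from 24 and 38 UMIs. Col11a2 did not exceed 2.98 CPM in any class of at least 100 nuclei per library. Col2a1, the main collagen of cartilage, had 1 UMI in the Prdm16 cKO library and 3 in the flox control library.

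Collagen VI forms beaded filaments that link cells to the surrounding matrix, and in fat it is a main component of the pericellular matrix. Col6a3, its largest chain, was 231 CPM in the Prdm16 cKO library and 278 CPM in the flox control library in fibroblast-like nuclei and 211 and 293 CPM in pericyte-like nuclei, against a background of 41.6 and 27.4 CPM. In mesothelial-like nuclei Col6a3 was 49.9 and 53.7 CPM. In adipocyte-like nuclei it was 31.8 and 30.6 CPM, below that background in the Prdm16 cKO library and slightly above it in the flox control library. Col6a2 was 90.7 and 103 CPM in fibroblast-like and 68.2 and 68.9 CPM in mesothelial-like nuclei, and Col6a1 52.9 and 52.5 CPM in fibroblast-like and 62.1 and 54.6 CPM in mesothelial-like nuclei.

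The alternative chains of collagen VI, encoded by Col6a4, Col6a5 and Col6a6 in a row on chromosome 9, were narrower. Col6a6 was 66.2 and 76.6 CPM in fibroblast-like nuclei of the Prdm16 cKO and flox control libraries, with 213 and 259 CPM in cluster 14 and 43.4 and 48.0 CPM in cluster 3; its background was 6.70 and 5.21 CPM. Col6a5 was 75.2 and 146 CPM in cluster 14, against 3.89 and 7.97 CPM in cluster 3, and 38.2 and 23.7 CPM in mesothelial-like nuclei. Both genes were higher in cluster 14 than in cluster 3 in each library. Col6a4 had 26 and 34 UMIs in all.

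Collagen VIII is a short-chain network collagen of vessel walls and of the membrane under the corneal endothelium, and its chains did not share a class. Col8a1 was 332 CPM in the Prdm16 cKO library and 382 CPM in the flox control library in fibroblast-like nuclei, 274 and 408 CPM in smooth muscle-like and 246 and 306 CPM in Schwann-like nuclei, against a background of 27.6 and 27.9 CPM. Col8a2 was 30.6 and 16.5 CPM in mesothelial-like nuclei, against 0.837 and 4.57 CPM, where Col8a1 was 11.3 and 14.6 CPM and below its background. Their r over the 30 points was 0.05. Col10a1, of hypertrophic cartilage, had 15 and 26 UMIs and lies wholly within Nt5dc1 on the other strand.

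The fibril-associated collagens bind to the surface of fibrils. Col14a1 was highest in fibroblast-like nuclei and took more UMIs there than any other member, at 1145 CPM (1116 to 1174) in the Prdm16 cKO library and 1082 CPM (1058 to 1106) in the flox control library, against a background of 51.1 and 62.5 CPM. It was higher in cluster 3, at 1241 and 1158 CPM, than in cluster 14, at 521 and 596 CPM. Thinned to 1000 UMIs, it was detected in 49.6% of Prdm16 cKO and 46.6% of flox control fibroblast-like nuclei, against 5.36% and 6.35% of T cell-like nuclei. Unthinned, these shares were 81.6% and 81.6% against 18.7% and 16.1%.

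Col12a1, found in tendon and other dense tissue, was 60.9 and 48.0 CPM in fibroblast-like nuclei of the Prdm16 cKO and flox control libraries and 41.3 and 33.8 CPM in mesothelial-like nuclei, against a background of 16.6 and 21.3 CPM. Col16a1 was 37.0 and 51.8 CPM in mesothelial-like and 18.9 and 19.6 CPM in fibroblast-like nuclei, against a background of 4.99 and 5.59 CPM. Col19a1 was highest in smooth muscle-like nuclei. It was 760 CPM (633 to 906) there in the Prdm16 cKO library and 516 CPM (454 to 584) in the flox control library, with at most 3.72 CPM in any class of at least 100 nuclei per library. It was detected in 17 of 34 Prdm16 cKO and 32 of 62 flox control smooth muscle-like nuclei, against 0.889% and 0.794% of T cell-like nuclei, and 42 of its 125 Prdm16 cKO UMIs came from 1 nucleus. Thinned, these shares were 29.4% and 31.1%, against 0.446% and 0.265% of T cell-like nuclei. Smooth muscle-like nuclei had a median of 3259 and 6073 UMIs.

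Col20a1 was low in adipocyte-like, fibroblast-like, mesothelial-like and both endothelial classes. It ran from 7.31 to 14 CPM in the Prdm16 cKO library, with a background of 10.8 CPM. In the flox control library it ran from 7.67 CPM in vascular endothelial-like to 17.4 CPM in mesothelial-like nuclei, with a background of 4.57 CPM. Col9a1 had 2 and 4 UMIs, Col9a2 1 and 2, Col9a3 50 and 72 and Col22a1 11 and 18 UMIs in the Prdm16 cKO and flox control libraries. Collagen IX is a cartilage collagen and Col22a1 belongs to the muscle and tendon junction.

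Among the collagens that span the membrane, Col23a1 was 190 CPM (168 to 215) in the Prdm16 cKO library and 187 CPM (170 to 205) in the flox control library in lymphatic endothelial-like nuclei. This was the largest distance from background of any measured member in that class, 18-fold in the library with the smaller ratio. The background of Col23a1 was 5.02 and 10.4 CPM, vascular endothelial-like nuclei held 32.2 and 28.1 CPM, and adipocyte-like nuclei 14.2 and 17.3 CPM. Within the lymphatic class Col23a1 was 311 and 227 CPM in cluster 13 and 68.0 and 144 CPM in cluster 18, in the Prdm16 cKO and flox control libraries. Col18a1 followed the same split, at 215 and 199 CPM in cluster 13 and 52.9 and 57.4 CPM in cluster 18.

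Col13a1, found at cell adhesions and the neuromuscular junction, was 79.1 CPM (13 UMIs) and 76.3 CPM (37 UMIs) in smooth muscle-like nuclei of the Prdm16 cKO and flox control libraries. Col25a1, known from neurons and developing muscle, was 25.9 and 33.2 CPM in pericyte-like nuclei, from 7 and 11 UMIs, and at most 2.03 CPM in any class of at least 100 nuclei per library. Col17a1, of the hemidesmosomes of skin, had 19 and 10 UMIs, and Col26a1, which overlaps Gm20485 on its own strand, had 16 and 19.

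Col7a1 encodes the anchoring fibril collagen of skin and was highest in pancreatic acinar-like nuclei, at 191 CPM (168 to 216) in the Prdm16 cKO library and 150 CPM (119 to 185) in the flox control library, with at most 9.98 CPM in any class of at least 100 nuclei per library. It was detected in 114 of 182 Prdm16 cKO and 50 of 78 flox control acinar-like nuclei, against 5.33% and 1.06% of T cell-like nuclei, and at most 7 of its UMIs came from 1 nucleus. Thinned, these shares were 24.3% and 20.5%, against 0.893% and 0.265%. The acinar-like class had a median of 4004.5 and 4774 UMIs. Col28a1, a collagen of peripheral nerve, was 108 CPM (11 UMIs) and 178 CPM (21 UMIs) in Schwann-like nuclei. It was also 20.9 and 20.1 CPM in vascular endothelial-like nuclei, against a background of 0.837 and 1.49 CPM.

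The vascular endothelial-like class was uneven for several members. Col5a2 was 1095 CPM in the Prdm16 cKO library and 1246 CPM in the flox control library in cluster 21, whose leading genes include Gja5 and Sox17, 372 and 399 CPM in cluster 19, led among others by Vwf, and 98.5 and 103 CPM in cluster 12, led among others by Gpihbp1. Col8a1 was also highest in cluster 21, at 262 and 382 CPM. Col4a1 and Col15a1 were higher in cluster 12 than in cluster 21, in both libraries. Col4a1 was 285 and 497 CPM in cluster 12, 150 and 149 CPM in cluster 19 and 113 and 191 CPM in cluster 21. Col15a1 was 120 and 112 CPM in cluster 12, 70.6 and 119 CPM in cluster 19 and 24.8 and 32.8 CPM in cluster 21, so the place of cluster 19 differed between the libraries for both genes.

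**Figure D4:**
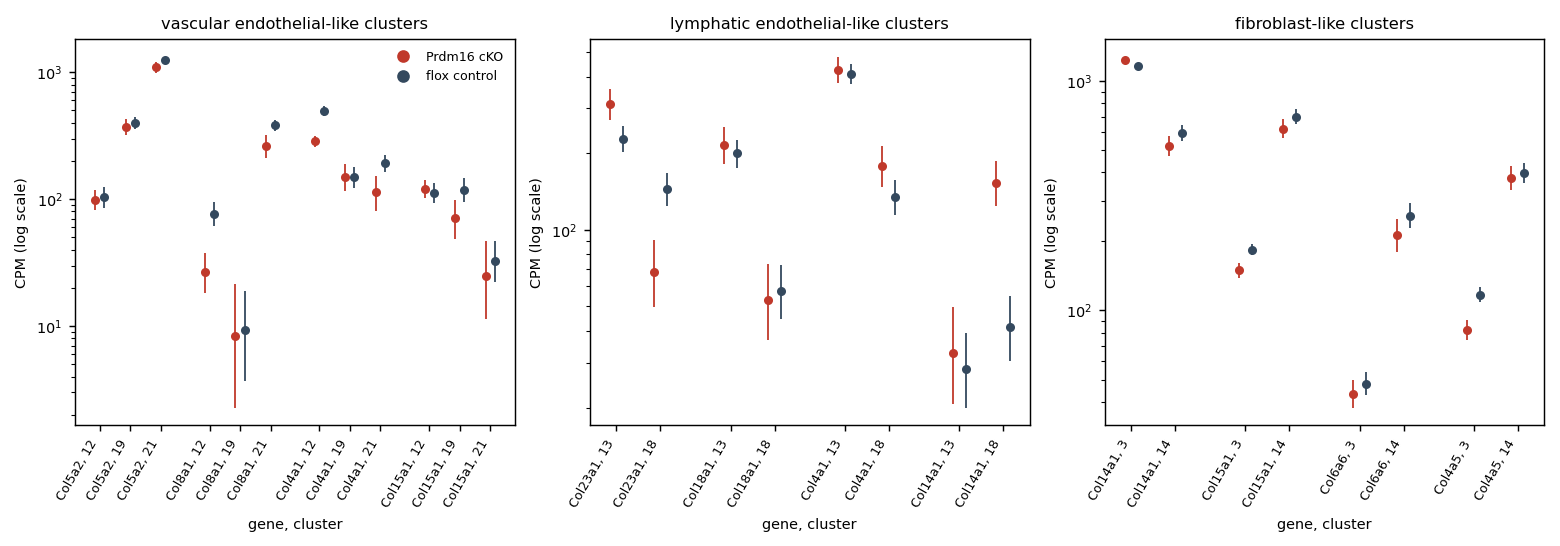
CPM (log axis, exact 95% Poisson intervals) of 4 members in the clusters of the vascular endothelial-like, lymphatic endothelial-like and fibroblast-like classes, Prdm16 cKO in red at the left and flox control in dark blue at the right of each pair; the labels give gene and cluster number. Col5a2 climbs from cluster 12 (98.5 and 103 CPM) to cluster 21 (1095 and 1246 CPM), and Col15a1 and Col6a6 separate fibroblast-like clusters 3 and 14.

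Between the libraries, few measured members differed by 1.5-fold or more. In adipocyte-like nuclei, the cells in which the Adipoq promoter is known to be active, 3 of 28 measured members were at least 1.5-fold higher in the Prdm16 cKO library, where 4.33% of all 13796 genes with as many UMIs were, and 1 of 28 was at least 1.5-fold lower, where 2.27% of all genes were. The members' median log2 ratio of Prdm16 cKO over flox control was -0.11, beside 0.03 over all genes, and 13 were above 0 and 15 below. The summed log2 ratio was -0.23 (-0.25 to -0.22).

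The member past the fold downward was Col5a3, at 42.8 CPM in the Prdm16 cKO library and 66.4 CPM in the flox control library, a log2 ratio of -0.63 (-0.72 to -0.55). By cluster it was 34.0 and 42.5 CPM in cluster 0, 42.6 and 65.1 CPM in cluster 1, 86.4 and 85 CPM in cluster 2 and 31.4 and 80.7 CPM in cluster 6. The log2 ratio was -1.36 (-1.58 to -1.14) in cluster 6, so the libraries differed most in that cluster and hardly in cluster 2. Cluster 2 held 307 of 2910 adipocyte-like nuclei in the Prdm16 cKO library and 1401 of 4427 in the flox control library, and cluster 6 771 and 303.

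Col5a1 had a log2 ratio of -0.50 (-0.59 to -0.40) in adipocyte-like nuclei. Clusters 0 and 1 each had -0.18, cluster 6 had -0.31 and cluster 2 had -0.59, so the pooled value was farther from 0 than in 3 of the 4 clusters. It was 43.2 CPM in the Prdm16 cKO library and 64.9 CPM in the flox control library in cluster 2, its highest, which held different shares of the libraries' nuclei as given above. Col4a1 and Col4a2 were at -0.31 and -0.30, with intervals of -0.35 to -0.28 and -0.34 to -0.26, and Col3a1 was at -0.22. In clusters 0, 1, 2 and 6 Col4a1 was at -0.22, -0.15, -0.35 and -0.22. Col4a2 was at -0.24, -0.11, -0.46 and -0.15 in the same order. The pooled value of each was thus farther from 0 than in clusters 0, 1 and 6. Col15a1, at 149 and 161 CPM, had a log2 ratio of -0.11 (-0.15 to -0.06). The 3 members past the fold upward had 94 to 172 UMIs per library. Col7a1 was 3.40 CPM in the Prdm16 cKO library and 1.77 CPM in the flox control library (log2 ratio 0.94, 0.56 to 1.33), Col24a1 4.44 and 2.70 CPM (0.72, 0.40 to 1.04) and Col6a6 2.61 and 1.61 CPM (0.69, 0.27 to 1.11).

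The levels of Col7a1, Col24a1 and Col6a6 were below the background of the same library in both libraries, at 9.98 and 3.05 CPM for Col7a1, 5.02 and 4.57 CPM for Col24a1 and 6.70 and 5.21 CPM for Col6a6. Beside Col7a1, the 7 acinar markers summed in adipocyte-like nuclei to 0.944% of their acinar-like level in the Prdm16 cKO library and 0.253% in the flox control library, with none at 0. Their part in the ratio was not tested.

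In fibroblast-like nuclei 1 of 26 measured members was at least 1.5-fold higher in the Prdm16 cKO library, where 2.94% of 9494 genes were, and 2 of 26 at least 1.5-fold lower, where 1.32% were. Their median log2 ratio was -0.21, beside 0.03 over all genes, with 18 of 26 below 0. Col6a5 was 13.5 CPM in the Prdm16 cKO library and 26.7 CPM in the flox control library (log2 ratio -0.99, -1.40 to -0.59), and 75.2 and 146 CPM in cluster 14. Col4a3 was 28.4 and 51.7 CPM (-0.86, -1.14 to -0.59). Col23a1, at 16.1 and 10.1 CPM, was higher (0.68, 0.21 to 1.15), beside a background of 5.02 and 10.4 CPM. Its flox control level was thus not above background. With means per nucleus, without doublet removal or with at least 300 UMIs, 0 members were past the fold upward. Col8a1 differed by cluster, at 306 and 402 CPM in cluster 3 and 502 and 255 CPM in cluster 14, which the pooled values of 332 and 382 CPM do not show.

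In mesothelial-like nuclei 3 of 26 measured members were at least 1.5-fold higher in the Prdm16 cKO library, where 2.89% of 9025 genes were, and 0 were lower, where 1.61% were. The members' median log2 ratio was -0.02, beside 0.02 over all genes, and the summed ratio 0.00 (-0.02 to 0.03). Col3a1, Col5a2, Col4a5 and Col4a6 had log2 ratios of 0.01, -0.01, -0.05 and -0.03, each with an interval that spans 0. Those past the fold had 94 to 161 UMIs per library. Col6a6 was 29.1 CPM in the Prdm16 cKO library and 13.9 CPM in the flox control library (1.07, 0.64 to 1.49), Col8a2 30.6 and 16.5 CPM (0.89, 0.49 to 1.29) and Col6a5 38.2 and 23.7 CPM (0.69, 0.34 to 1.03). Col6a5 was thus lower in fibroblast-like and higher in mesothelial-like nuclei of the Prdm16 cKO library, a difference that was not tested.

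In vascular endothelial-like nuclei 1 of 14 measured members was at least 1.5-fold higher in the Prdm16 cKO library, where 9.03% of 6497 genes were, and 3 of 14 at least 1.5-fold lower, where 5.82% were. The median log2 ratio was -0.04, beside 0.01 over all genes, and the summed ratio -0.34 (-0.41 to -0.28). Col8a1 was 63.8 CPM in the Prdm16 cKO library and 160 CPM in the flox control library (-1.33, -1.62 to -1.04), Col18a1 19.5 and 37.2 CPM (-0.93, -1.50 to -0.39) and Col5a2 339 and 567 CPM (-0.74, -0.88 to -0.61). Col4a6 was higher, at 34.1 and 21.5 CPM (0.66, 0.14 to 1.19). Its background was 28.5 and 29.0 CPM, so its flox control level was below background. Of the 131 Prdm16 cKO UMIs of Col8a1, 34 came from 1 nucleus.

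Within clusters 12, 19 and 21 the log2 ratio of Col5a2 was -0.07, -0.10 and -0.19, so the pooled ratio of -0.74 was farther from 0 than that of any cluster. Cluster 21 made up 50 of 298 Prdm16 cKO and 104 of 439 flox control nuclei of the class. Col8a1 was 26.5 and 77.0 CPM in cluster 12 and 262 and 382 CPM in cluster 21, lower in each. The 8 adipocyte markers, none at 0, summed in this class to 49.3% of their adipocyte-like level in the Prdm16 cKO library and 25.2% in the flox control library, beside 33.0% and 24.9% in lymphatic endothelial-like nuclei. The adipocyte-like profile of the same library was also subtracted at those shares, an alternative chosen after seeing the data. The log2 ratios were then -0.31 for Col5a2, -0.81 for Col8a1, -1.0 for Col18a1 and 1.21 for Col4a6, so Col5a2 was no longer past 1.5-fold. Col4a1 (-0.60), Col15a1 (-0.82) and Col5a3 (-2.08, at 1.63 and 6.93 CPM) were newly past it downward, and Col23a1 (0.64) upward. The summed ratio was then -0.18; it was -0.16 without doublet removal and 0.032 in cluster 19 alone, and without doublet removal no member was past the fold upward.

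In lymphatic endothelial-like nuclei 2 of 13 measured members were at least 1.5-fold higher in the Prdm16 cKO library, where 4.45% of 5686 genes were, and 0 were lower, where 2.43% were. The median log2 ratio was 0.19, beside 0.02 over all genes. The summed ratio was 0.13 (0.05 to 0.21), and it was -0.13 when the libraries were clustered separately and -0.043 without doublet removal. Under TMM scaling, and also without doublet removal, 1 member was past the fold upward. Col14a1 was 92.5 CPM in the Prdm16 cKO library and 34.7 CPM in the flox control library (1.41, 1.00 to 1.83), and 153 and 41.4 CPM in cluster 18. The background of Col14a1 was 51.1 and 62.5 CPM, so its flox control level was below background. Cluster 18 held 101 of 123 Prdm16 cKO and 49 of 85 flox control UMIs of Col14a1, and cluster 13 held too few to be measured. The 123 Prdm16 cKO UMIs were spread over 54 of 197 nuclei, at most 20 in 1 nucleus. The 9 progenitor or fibroblast markers, none at 0, summed in lymphatic endothelial-like nuclei to 13.9% of their own-class level in the Prdm16 cKO library and 10.7% in the flox control library, and their part in the Col14a1 ratio was not tested. Col4a6 was 82.7 and 54.8 CPM (0.60, 0.22 to 0.97). Col23a1, the member farthest above background, had a log2 ratio of 0.02 (-0.20 to 0.25), with cluster 13 at 0.45 (0.19 to 0.72) and cluster 18 at -1.09 (-1.59 to -0.60).

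**Figure D5:**
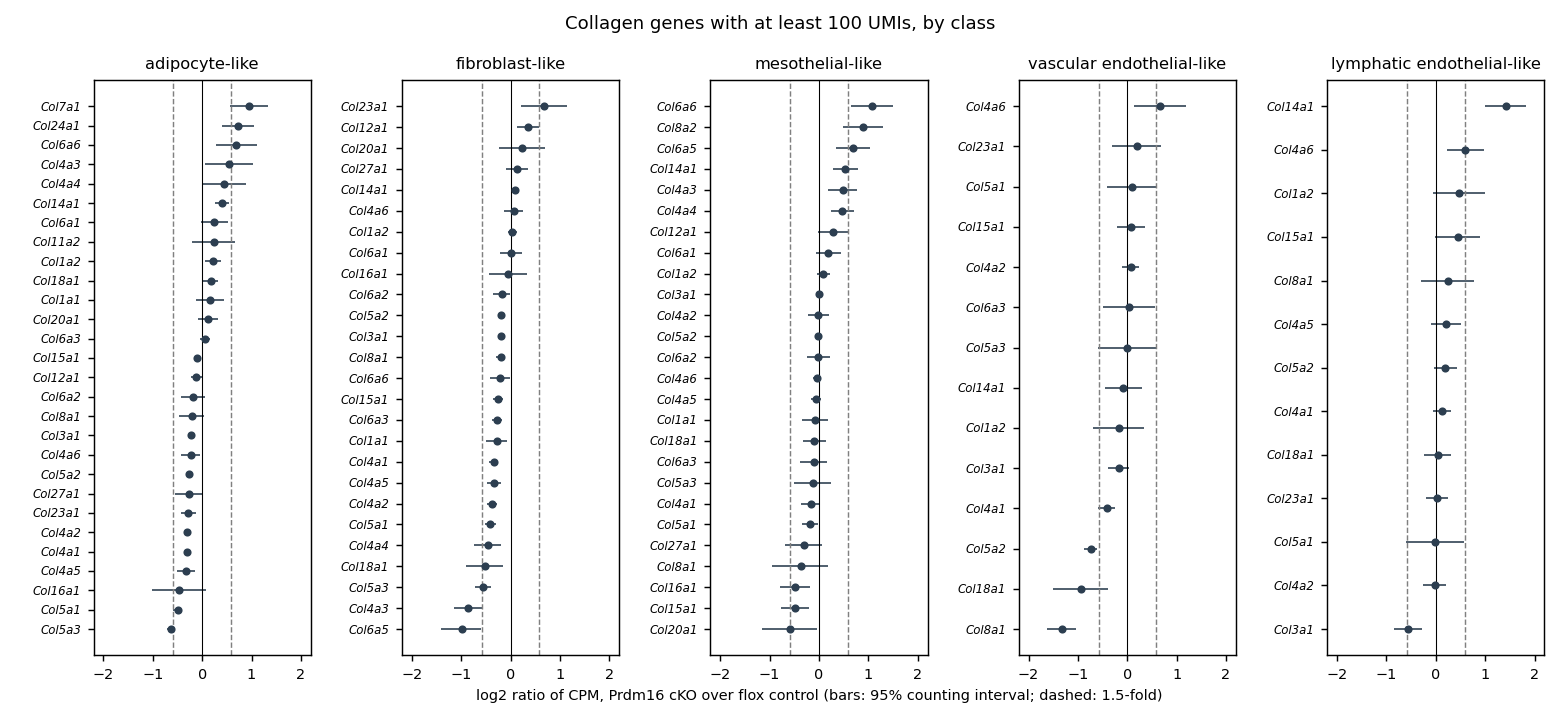
log2 ratio of CPM, Prdm16 cKO over flox control (horizontal axis), for each measured member in the 5 large classes; points are the ratio of class sums, bars exact 95% intervals of counting error, and dashed lines 1.5-fold. Most members lie between the dashed lines, and Col8a1 (-1.33) in vascular and Col14a1 (1.41) in lymphatic endothelial-like nuclei lie farthest out.

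Collagen chains are hydroxylated, folded, trimmed and cross-linked by a fixed set of proteins, and 46 genes for these steps and for collagen receptors were read in the same way. In adipocyte-like nuclei 2 of 39 measured genes were at least 1.5-fold higher in the Prdm16 cKO library and 1 was lower, beside 4.33% and 2.27% of all genes, with a median log2 ratio of 0.06. P3h3, of the prolyl 3-hydroxylase family, was 3.02 CPM in the Prdm16 cKO library and 1.43 CPM in the flox control library (1.08, 0.66 to 1.51). Loxl1, a cross-linking amine oxidase, was 15.4 and 10.1 CPM (0.61, 0.44 to 0.77), whereas its relative Lox was 3.66 and 5.94 CPM (-0.70, -0.99 to -0.41).

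In each class these counts were near the share over all genes or rested on 1 or 2 genes. In fibroblast-like nuclei 1 of 37 genes was higher and 0 lower, beside 2.94% and 1.32% of all genes: Tll1, a protease that removes propeptides, was 44.9 and 27.7 CPM in the Prdm16 cKO and flox control libraries (0.70, 0.42 to 0.97). In mesothelial-like nuclei 0 of 33 passed either way, beside 2.89% and 1.61%. In lymphatic endothelial-like nuclei 1 of 18 was higher, the collagen receptor Ddr1, and 2 were lower, beside 4.45% and 2.43% of all genes. Tll1 was 668 CPM in the Prdm16 cKO library and 1203 CPM in the flox control library there (-0.85, -0.96 to -0.74), and Sec24d, a coat protein needed to export collagen, 80.5 and 132 CPM (-0.71, -1.04 to -0.39). In vascular endothelial-like nuclei 2 of 23 were higher and 2 lower, beside 9.03% and 5.82% of all genes. Those higher were Mrc2, an uptake receptor for collagen, at 34.1 and 12.1 CPM and Ddr1 at 33.1 and 16.8 CPM. Those lower were P3h2 at 34.6 and 66.1 CPM and Adgrg1 at 19.5 and 29.6 CPM. The adipocyte markers stood in this class at 49.3% and 25.2% of their adipocyte-like level. Adipocyte-like nuclei held 62.0 and 48.3 CPM of Ddr1 and 15.1 and 10.6 CPM of Mrc2. The part of such RNA in these ratios was not tested, and no background was taken for these genes in any class.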

How the data were processed

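The authors deposited, per the labels, 1 matrix of whole-number UMI counts per library. The reads were processed with Cell Ranger 6.1.2 and mm10, per the submitters' processing notes; the strand setting is not given in the sources used here. The members and lists were chosen with earlier results of these data known.

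Nuclei with at least 500 UMIs and 300 genes and at most 5% mitochondrial UMIs were kept. Doublet scores came from scrublet; since its automatic call marked under 0.5% of nuclei, the highest scores were removed at 0.8% per 1000 nuclei. Both libraries were clustered together (scanpy 1.11.5, 2000 variable genes without collagens, 30 components, 20 neighbours, Leiden resolution 1.0), and clusters were named from 20 marker sets with at least 3 markers in 5% of nuclei and 2-fold enriched. For each class, the counts of its nuclei were added within a library and given as CPM with exact Poisson intervals; ratios have exact conditional binomial intervals. Members with at least 100 UMIs over both libraries in a class were compared where each library had 100 nuclei, and levels were given from 20 nuclei. Intervals cover counting error only. With 1 library per group no test was possible, and a gene was called past 1.5-fold.

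Every member is named. Full values are given for the 5 members farthest above the T and B cell-like background, those past 1.5-fold, the chains of collagen IV and VI and the 3 highest per kilobase of span. Alternatives were TMM scaling (edgeR 4.0.16, used for that only), other UMI minimums, thinning to 1000 UMIs, means per nucleus, other clusterings, no doublet removal, 10% free RNA subtracted and single clusters. Scripts (Python 3.11.15, scipy 1.17.1) were tested on simulated data. Gene spans and overlaps are from GENCODE on GRCm38, promoters from RefSeq on GRCm38.p6.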

Additional observations from a re-analysis of the deposited data

How the results depend on the processing

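Each class was recomputed under other processing; 116 values stayed within tolerance, 79 moved beyond it and 3 reversed, meaning that a sum whose interval left out 0 changed sign. The mesothelial-like sum, whose interval spans 0, also changed sign under TMM scaling and without doublet removal and is among those that moved. The tolerance was a count within 1.5 times the reported one, or a summed ratio within its counting interval. Within it, the fibroblast-like lower count was 2 or 3, the mesothelial-like higher count 2 to 4, the vascular endothelial-like lower count 2 or 3 and the lymphatic endothelial-like higher count 2 or 3. Counts are of members past 1.5-fold, and the cause of each move was not tested. The number of measured members changed with the minimum of UMIs. Shares over all genes were not taken under the alternatives, so the counts below cannot be set beside such shares.

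In adipocyte-like nuclei, with 3 higher, 1 lower and a summed log2 ratio of -0.23, TMM scaling gave a sum of -0.27. Without a minimum of UMIs 9 of 43 measured members were higher, and with at least 300 UMIs 1 of 22 was, beside 28 measured at first. Thinning gave 5 higher, 2 lower and -0.21. Clustering each library on its own gave 2 lower, and subtracting 10% free RNA 6 higher. Cluster 0 gave 0 higher, 0 lower and -0.14, cluster 1 gave 0 higher, 2 lower and -0.11, cluster 2 gave 0 higher and -0.21, and cluster 6 gave 1 higher and -0.17.

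In fibroblast-like nuclei, with 1 higher, 2 lower and -0.16, TMM scaling gave -0.21. Without a minimum 7 were higher and 4 lower, and with 300 UMIs 0 were higher and 1 lower. Thinning gave -0.11. Means per nucleus gave 0 higher, no doublet removal 0 higher and -0.21, the adipocyte profile subtracted (chosen after seeing the data, here and below) -0.11, and cluster 3 alone 1 lower.

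In mesothelial-like nuclei, with 3 higher, 0 lower and 0.00, TMM scaling gave 1 lower and -0.044. Without a minimum 9 were higher and 1 lower, and with 300 UMIs 0 were higher. Thinning gave 3 lower and 0.046, means per nucleus 2 lower, no doublet removal 2 lower and -0.074, 10% free RNA subtracted 2 lower, and the adipocyte profile subtracted 2 lower and 0.085. Cluster 7 gave 5 higher, and cluster 8 gave 0 higher, 1 lower and 0.051.

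In vascular endothelial-like nuclei, with 1 higher, 3 lower and -0.34, no minimum gave 4 higher and 5 lower, and 300 UMIs 0 higher. Thinning gave 0 higher and -0.25, means per nucleus -0.25, collagens among the variable genes 0 higher, own-library clustering 0 higher and -0.21, no doublet removal 0 higher and -0.16, and the adipocyte profile subtracted 2 higher, 5 lower and -0.18. Clusters 12 and 21 each gave 0 higher, and cluster 19 gave 0 higher, 1 lower and a reversed sum of 0.032.

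In lymphatic endothelial-like nuclei, with 2 higher, 0 lower and 0.13, TMM scaling gave 1 higher and 1 lower, no minimum 8 higher and 3 lower, and 300 UMIs 0 higher. The sum reversed to -0.13 with own-library clustering, which gave 1 lower, and to -0.043 without doublet removal, which gave 1 higher. Subtracting 10% free RNA gave 1 lower, and the adipocyte profile 1 lower and 0.28. Cluster 13 gave 0 higher and 0.031, and cluster 18 gave 1 higher, 2 lower and 0.30.

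Among classes of at least 100 nuclei per library, the class of highest level of the 27 measured members differed from that given for Col1a1, Col4a2 and Col20a1 after thinning, for Col4a1 with own-library clustering, and for Col4a1, Col4a3 and Col20a1 without doublet removal. Counts under 100 UMIs limit the rarer members.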

Other observations

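Small classes held further differences between the libraries, given as values because few nuclei carry them. In Schwann-like nuclei Col12a1 had 2 UMIs in the Prdm16 cKO library and 40 in the flox control library, and 31 of those 40 were in 1 nucleus. In pericyte-like nuclei Col23a1 had 0 UMIs in the Prdm16 cKO library and 34 in the flox control library, of which 24 were in 1 nucleus. The 7 lymphatic endothelial markers, the class where Col23a1 was highest, summed in pericyte-like nuclei to 1.01% of their own-class level in the Prdm16 cKO library (2 at 0) and 3.18% in the flox control library (1 at 0), and the 8 mesothelial markers to 3.11% (2 at 0) and 8.98% (none at 0); their part was not tested. In smooth muscle-like nuclei Col14a1 had 20 UMIs in 14 nuclei of the Prdm16 cKO library and 13 UMIs in 10 nuclei of the flox control library. The 9 progenitor or fibroblast markers stood in this class at 9.95% of their own-class level in the Prdm16 cKO library (1 at 0) and 6.53% in the flox control library (2 at 0), and their part was not tested.

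The unnamed cluster 5, with 959 Prdm16 cKO and 410 flox control nuclei, held a summed collagen level of 1824 CPM in the Prdm16 cKO library and 2110 CPM in the flox control library.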
